A study of Mus musculus with 56 samples.

Results

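Hearts of mice fed only in the daytime were compared at a pair of clock hours, zeitgeber time (ZT, hours after lights on) 20, in the dark during the daily fast, and ZT8, in the light during the feeding period. The comparison held 8 of the 56 heart libraries, 4 at each hour, taken by their labelled regimen and ZT. All libraries came from adult female C57BL/6J mice aged 9 weeks, kept on 12 h of light and 12 h of dark with chow and water freely available for 7 days and then given food in the daytime only (DRF, daytime-restricted feeding) or at night only (NRF) for 7 days. NRF hearts at the same 2 hours, where ZT8 was the fast and ZT20 the feeding period, gave 8 libraries of reference that are shared with no DRF group. Because feeding and light alternate together in DRF mice, the hour, the light and the fast cannot be told apart within the DRF comparison.

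The working heart burns mostly fatty acids, and draws more on glucose and lactate after a meal. Fasting raises circulating fatty acids, which enter cardiomyocytes and activate the nuclear receptor PPAR-alpha, whose known targets include genes of fatty acid oxidation and a kinase that inhibits the oxidation of pyruvate. The circadian clock is a transcriptional loop in which CLOCK (or NPAS2) and BMAL1, the product of Arntl, activate Per, Cry, Rev-erb (Nr1d1 and Nr1d2) and PAR bZIP genes such as Dbp, and the REV-ERB proteins in turn repress Arntl.

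Each library held 29.5 to 53.4 M reads assigned to genes, recovered from the deposited values as whole reads. Levels are given in TPM (a read share per length) and differences on log2(TPM + 1), always ZT20 minus ZT8, with limma's Benjamini-Hochberg adjusted p over 13869 genes and 4 libraries per group. A value alone in parentheses after a gene is its log2 difference in DRF hearts, and means are given as ZT8 to ZT20. Several libraries stood apart. In replicate 1 of NRF ZT8, Dbp was 19.9 TPM against 116, 148 and 157 TPM in its group, and counts against NRF are given with and without it. Replicate 2 of DRF ZT20 had the lowest median correlation with its own group of the 16 libraries in these comparisons (0.9784, against 0.9827 for replicate 1 of NRF ZT8), the highest summed erythroid markers and the lowest summed cardiomyocyte markers of its group. Replicate 4 of NRF ZT8 had a mitochondrial share of 16.9% and summed fibroblast markers of 5001 TPM, against 19.5% to 21.2% and 2986 to 3608 TPM in its group. Summed cardiomyocyte markers were 44975 to 48780 TPM at ZT8 and 39341 to 47742 TPM at ZT20, as the labelled tissue requires. Summed atrial markers ranged from 862 to 3256 TPM at ZT8 and from 127 to 2746 TPM at ZT20, and all 7 had negative differences (median -1.28) without any passing the test by limma (4 at an unadjusted p under 0.05 and 0 by voom). Summed erythroid markers spread from 1858 to 51794 TPM within the ZT20 group. None of 15 library measures (depth, mitochondrial share, the share of the top genes and 12 summed marker lists) passed a test between the hours, with a lowest exact permutation p of 0.0571 (two-sided) and a lowest adjusted p of 0.571. The smallest p that 4 against 4 allows is 0.0286. With 15 measures adjusted together, a lone measure at that p could not have passed, so no likeness of the hours follows.

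In DRF hearts 1642 genes differed between ZT20 and ZT8, 11.8% of those tested. Of these, 468 were higher at ZT20 (3.37% of tested genes) and 1174 were lower (8.46%). The split rests on the scaling: with median-of-ratios rescaling 2198 genes were called, 1141 higher and 1057 lower, and the median difference over all genes moved from -0.06 to -0.01. All 468 genes called higher stayed higher, and 975 of the 1174 called lower stayed lower. Most differences were small, with a median size of 0.36 among called genes, and 51 genes changed by at least 1 log2 unit, 28 upward and 23 downward. The libraries of both hours did not overlap for 1343 of the called genes and for 16.8% of all tested genes. Leaving out ZT8 replicate 1 or 4 lowered the count of called genes to 1006 and 1016, and leaving out ZT20 replicate 2 to 1146 (474 higher and 672 lower). Without ZT20 replicate 4 the count was 1701 (320 higher and 1381 lower). In bulk tissue, fewer cells of a type and less RNA per cell cannot be told apart, and as no source used here states that libraries of a group came from separate animals, the p-values measure the spread between these libraries, which may be technical.

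**Figure D1:**
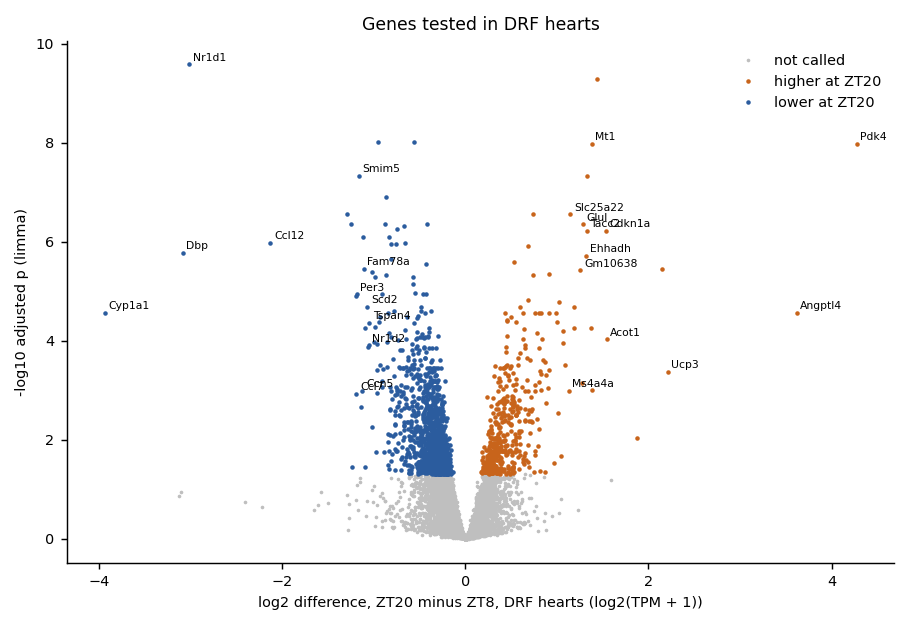
Each point is a tested gene, with its log2 difference (ZT20 minus ZT8, log2(TPM + 1)) on the x axis and the -log10 of limma's adjusted p on the y axis, in orange where higher at ZT20, blue where lower and grey where not called. Pdk4 (4.28) lies farthest to the right and Cyp1a1 (-3.94) farthest to the left.

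The largest rise on the log2(TPM + 1) scale was in Pdk4, the pyruvate dehydrogenase kinase that limits the entry of pyruvate into mitochondrial oxidation (chr6:5483351-5496309, minus strand, mm10). Pdk4 measured 55.01, 92.5, 59.6 and 54.5 TPM in the ZT8 libraries and 1441, 1589, 1131 and 955 TPM in the ZT20 libraries. No ZT20 library came near the ZT8 range, and the ratio of means was 19.6 (log2 difference 4.28, SE 0.46, adjusted p = 1.04e-08). Angptl4, a secreted inhibitor of lipoprotein lipase (chr17:33773750-33781830, minus strand), was second on that scale, with a larger ratio of means (20.2). Angptl4 measured 1.34, 2.85, 1.53 and 1.08 TPM in the ZT8 libraries and 40.6, 54.3, 25.9 and 16.5 TPM in the ZT20 libraries. Groups were far apart, although the ZT20 libraries spread widely (log2 difference 3.62, SE 0.58, adjusted p = 2.73e-05).

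Ucp3, an inner mitochondrial membrane carrier of muscle that is raised when fatty acid supply increases, rose as well (chr7:100472990-100486432, plus strand). Ucp3 measured 19.6, 27.1, 16.8 and 18.2 TPM in the ZT8 libraries and 122, 86.7, 95.8 and 85.5 TPM in the ZT20 libraries. Every ZT20 library was above every ZT8 library (log2 difference 2.21, SE 0.43, adjusted p = 4.29e-04). Acot1, a cytosolic acyl-CoA thioesterase, went from 10.6 to 33.03 TPM (log2 difference 1.54, SE 0.27, adjusted p = 9.33e-05), and Ehhadh, the peroxisomal bifunctional enzyme, from 8.34 to 22.5 TPM (1.32). In NRF hearts, where ZT20 was the fed hour, these genes differed the other way: Pdk4 by -2.04, Ucp3 by -1.72, Acot1 by -1.19 and Ehhadh by -0.56, each called, while Angptl4 at -1.01 was not (adjusted p = 0.277). The differences between regimens passed the test for all 5, with adjusted p from 6.78e-09 to 2.87e-04.

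**Figure D2:**
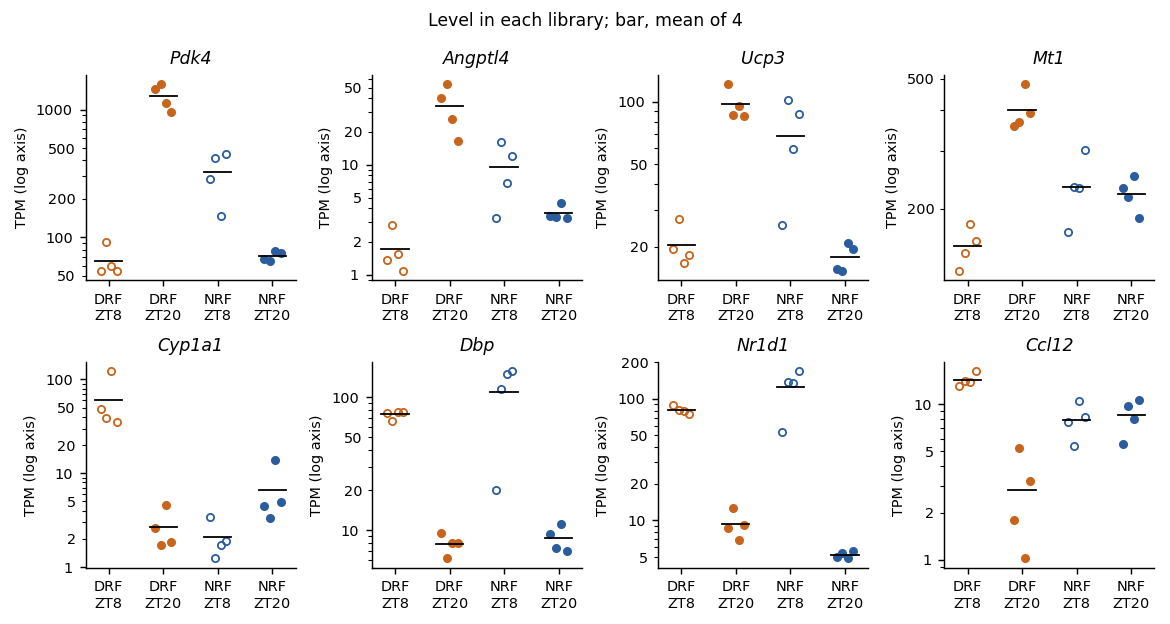
Level in TPM (log axis) of 8 genes in each library, DRF in orange and NRF in blue, open points at ZT8 and filled points at ZT20, with a bar at the mean of 4. Pdk4, Angptl4, Ucp3 and Mt1 are higher in every DRF ZT20 library than in any DRF ZT8 library, and Cyp1a1, Dbp, Nr1d1 and Ccl12 are lower.

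Of 33 tested genes of fatty acid oxidation 6 rose, 0 fell and 27 did not pass the test (18.2% called), where 11.8% of all tested genes were called and 3.37% rose, and the list's median difference of -0.0044 lay near the -0.06 of all genes. Those that rose were Ucp3, Acot1, Ehhadh, the malonyl-CoA decarboxylase Mlycd (66.7 to 106 TPM, 0.65), the carnitine palmitoyltransferase Cpt1a (25.4 to 46.1 TPM, 0.83) and the mitochondrial thioesterase Acot2 (0.59). All 6 differed between the regimens. Of 24 genes of lipid uptake and storage 11 rose, 0 fell and 13 did not pass the test (45.8% called), against the same shares of all genes, with a median of 0.29. They included the fatty acid transporter Cd36 (919 to 1216 TPM, 0.40), the hormone-sensitive lipase Lipe (0.76) and the lipid droplet coat genes Plin2 (0.52), Plin3 (0.43), Plin4 (0.84) and Plin5 (0.55). Of the 11, 8 differed between the regimens; Plin3 rose in NRF hearts too (0.36).

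On the glucose side, of 31 genes of fuel choice and glycolysis 3 rose, 3 fell and 25 did not pass the test (19.4% called). Beside Pdk4, the fructose-2,6-bisphosphate kinase Pfkfb2 (0.72) and Txnip, an inhibitor of glucose uptake (0.97), were higher, and hexokinase Hk1 (45.2 to 34.02 TPM, -0.40) and Pfkfb3 (-0.67) were lower. Of 27 insulin signalling genes 1 rose, 3 fell and 23 did not pass the test (14.8% called), near the 11.8% of all tested genes. Grb14, an adaptor that inhibits the insulin receptor (-0.41), and Akt1 (-0.33) fell. Of 24 genes linked to FOXO, atrophy and mTORC1 inhibition, 4 rose, 1 fell and 19 did not pass the test (20.8% called), and of 26 autophagy genes 4 rose, 0 fell and 22 did not pass the test (15.4% called). With median-of-ratios rescaling the higher and lower calls were 5 and 2 in the fuel choice list, 4 and 3 in insulin signalling, 8 and 1 in the FOXO list and 9 and 0 in autophagy. The autophagy members were the cargo receptor Sqstm1 (190.5 to 260.4 TPM, 0.45), Atg13 (0.38), Gabarapl1 (0.52) and Bnip3 (0.55), and all 4 differed between the regimens. The median of the autophagy list was -0.0047. Akt1 lost its call in 3 of the 16 alternatives run (another processing choice, or a library left out).

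Of 15 genes known to respond to glucocorticoids 8 rose, 0 fell and 7 did not pass the test (53.3% called), against 11.8% of all tested genes, with a median of 0.62; Pdk4 belongs to this list too. Mt1 measured 129, 146, 179 and 159 TPM in the ZT8 libraries and 359, 369, 482 and 392 TPM in the ZT20 libraries. Mt1, a metal-binding metallothionein, did not overlap between the hours (log2 difference 1.38, SE 0.15, adjusted p = 1.06e-08). Its relative Mt2 was called in the same direction (2.15). Mt2 did not meet the rule for the 12 largest rises, so its libraries overlapped or its mean was below 5 TPM. The cell cycle inhibitor Cdkn1a went from 11.8 to 36.9 TPM (1.53). Fkbp5, a co-chaperone of the glucocorticoid receptor, rose in both regimens (1.27 in DRF and 1.28 in NRF), but its DRF libraries overlapped and its DRF call was lost with the libraries of the comparison fitted alone (adjusted p = 0.0534). Mt1 in NRF hearts was -0.05 (adjusted p = 0.871), and the regimens differed (adjusted p = 1.60e-05). Glul, the glutamine synthetase, also rose, from 172 to 422 TPM (1.28), against 0.02 in NRF.

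The largest fall was in Cyp1a1, the cytochrome P450 induced through the aryl hydrocarbon receptor (chr9:57687928-57703824, plus strand). Cyp1a1 measured 48.5, 38.6, 123 and 34.98 TPM in the ZT8 libraries and 2.59, 1.73, 4.58 and 1.85 TPM in the ZT20 libraries. Replicate 3 of ZT8 was far above its group, and every ZT20 library was below every ZT8 library (log2 difference -3.94, SE 0.63, adjusted p = 2.76e-05). NRF hearts held 2.07 ± 0.951 TPM at ZT8 and 6.63 ± 4.86 TPM at ZT20 (SD, n = 4), and the regimens differed in the ZT20 minus ZT8 difference (adjusted p = 2.52e-04). At ZT16, outside this comparison, NRF hearts held 76.2 ± 83.5 TPM, against 12.2 ± 8.27 TPM in DRF.

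Ccl12 lay between 13.1 and 16.3 TPM in the 4 ZT8 libraries and between 1.02 and 5.26 TPM in the 4 ZT20 libraries. This chemokine, which attracts monocytes, fell without overlap (log2 difference -2.13, SE 0.28, adjusted p = 1.04e-06), and Ccl7, a related chemokine, went from 8.8 to 3.52 TPM (-1.19). Summed macrophage markers were 819 to 1061 TPM at ZT8 and 933 to 1059 TPM at ZT20, with 0 of 9 members called by limma (1 at an unadjusted p under 0.05, 1 by voom). The stearoyl-CoA desaturase Scd2 was lower (30.6 to 14.1 TPM, -1.07) and was the one call among 23 lipogenesis genes (4.35% called, against 11.8% of all tested genes). Of 24 genes of cholesterol synthesis and uptake 0 rose, 8 fell and 16 did not pass the test (33.3% called), where 8.46% of all tested genes fell. Idi1 lost its call with the libraries of the comparison fitted alone (adjusted p = 0.0636). Higher and lower calls were 1 and 2 for lipogenesis and 0 and 7 for cholesterol with median-of-ratios rescaling. The cholesterol genes included Mvd (-0.52), Idi1 (-0.37) and Sqle (-0.38), and the list median was -0.16.

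Of 24 endoplasmic reticulum chaperone and unfolded protein response genes 1 rose, 6 fell and 17 did not pass the test (29.2% called), against 11.8% of all tested genes, with a median of -0.25. The protein disulfide isomerase Pdia3 (-0.43), the secreted factor Manf (-0.83) and the chaperone Hyou1 (-0.61) fell, while Herpud1, a component of the degradation machinery of the reticulum, went from 147 to 278 TPM (0.91). Of 38 proteasome subunit genes 0 rose, 7 fell and 31 did not pass the test (18.4% called), and of 77 mitochondrial ribosomal protein genes 0 rose, 8 fell and 69 did not pass the test (10.4% called), where 8.46% of all tested genes fell. Under median-of-ratios rescaling proteasome and mitochondrial ribosomal genes had 4 and 3 falls, the reticulum list 4, and 1 mitochondrial ribosomal gene was called higher. Among 87 gene models of cytosolic ribosomal proteins the one call was Rps4l (-0.46), which the annotation gives as a transcribed processed pseudogene and whose reads may be shared with its parent gene; it lost the call in 4 alternatives.

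Of the 24 clock genes tested, 14 were called, against 11.8% of all tested genes. Dbp, a PAR bZIP transcription factor driven by the clock (chr7:45705088-45710203, plus strand), and Nr1d1, which encodes REV-ERB alpha (chr11:98767932-98775333, minus strand), were the largest falls among called genes after Cyp1a1. Dbp measured 76.2, 66.8, 77.5 and 77.7 TPM in the ZT8 libraries and 9.62, 6.16, 7.97 and 8.01 TPM in the ZT20 libraries. Nr1d1 measured 88.8, 81.2, 79.1 and 75.6 TPM in the ZT8 libraries and 8.72, 12.6, 6.87 and 9.18 TPM in the ZT20 libraries. Both stood well apart (log2 difference -3.09, SE 0.42, adjusted p = 1.68e-06 for Dbp, and log2 difference -3.02, SE 0.27, adjusted p = 2.63e-10 for Nr1d1).

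The activators rose, all 3 of them: Arntl (2.07 to 6.79 TPM, 1.38), Clock (0.34) and Npas2 (0.59). Among 14 repressors and modulators, 2 rose, 5 fell and 7 did not pass the test (50% called). The falls were Nr1d1, Nr1d2 (60.02 to 28.4 TPM, -1.06), Per3 (-1.19), Bhlhe41 (-0.84) and Ciart (-1.10), and Cry1 rose (9.48 to 16.8 TPM, 0.76). Per1 at -0.57 (adjusted p = 0.323), Per2 at -0.32 (0.421), Cry2 at 0.01 (0.966), Bhlhe40 at -0.58 (0.0783), Nfil3 at 0.70 (0.0523), Csnk1d at 0.01 (0.937) and Csnk1e at 0.14 (0.22) did not pass. Under median-of-ratios rescaling Nfil3 (adjusted p = 0.0404) and Csnk1e (0.0125) passed, giving 4 rises and 5 falls among the repressors and modulators. Among ROR, PAR bZIP and output genes, Dbp, Hlf (-1.02) and Tef (-0.76) fell. Rora (0.24), Usp2 (-0.16) and Timp4 (0.56) did not pass, although Rora did under that rescaling (0.0371). Ciart lost its call in 9 alternatives, with adjusted p up to 0.107, and Npas2 in 3.

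In NRF hearts Dbp differed by -3.18, Nr1d1 by -4.22 and Arntl by 1.02, in the DRF direction. Of the 24 clock genes tested, Npas2 (adjusted p = 0.0404) and Cry1 (0.0164) differed between the regimens. Without NRF ZT8 replicate 1, Npas2 no longer did (0.109), and Nr1d1 (0.00346) and Nfil3 (4.60e-04) did, so these calls depended on that library.

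**Figure D3:**
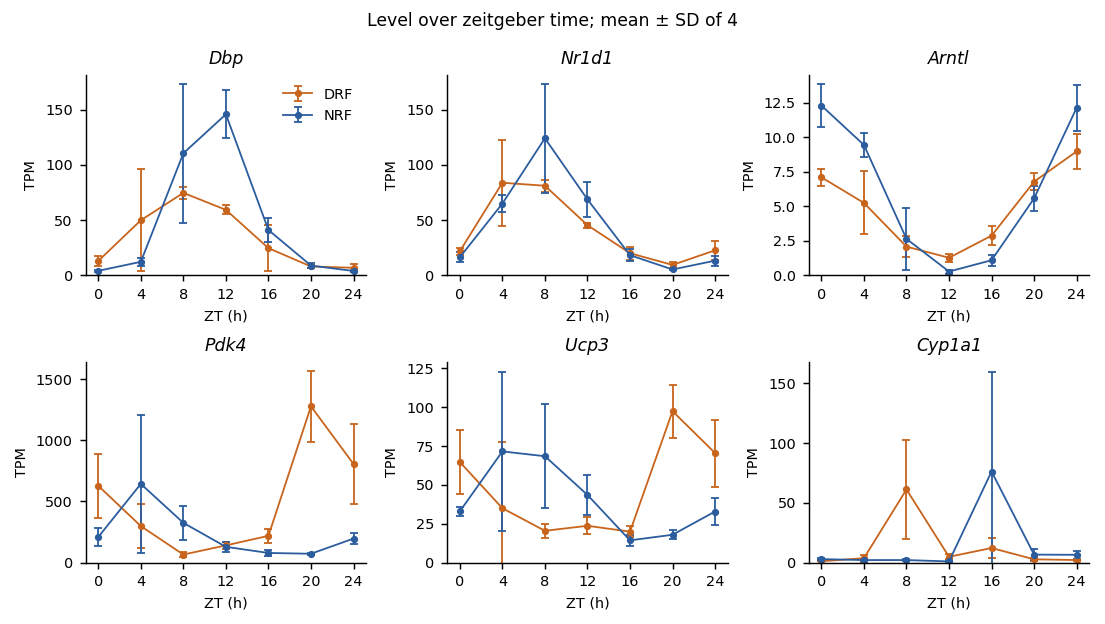
Mean level in TPM (± SD, n = 4) of 6 genes against ZT in hours, DRF in orange and NRF in blue. Over the 7 sampled hours of DRF, Pdk4 was highest at ZT20 and lowest at ZT8, Dbp was highest at ZT8 and Nr1d1 lowest at ZT20.

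The proximal promoters of 5 clock genes are shown to place the clock motifs beside these values. The 250 bases before the RefSeq start (GRCm38.p6) are given 5′ to 3′ on the gene's strand, with capitals marking the E-box CACGTG in Ciart, Bhlhe41 and Cry1, a forkhead motif GTAAACA also in Cry1, the D-box TTATGTAA in Per3 and the ROR element TAGGTCA (here on the other strand) in Nfil3. The windows are chr3:95882229-95882478 (Ciart), chr6:145865421-145865670 (Bhlhe41), chr10:85185055-85185304 (Cry1), chr4:151044666-151044915 (Per3), chr13:52981040-52981289 (Nfil3), all on the minus strand.
Ciart: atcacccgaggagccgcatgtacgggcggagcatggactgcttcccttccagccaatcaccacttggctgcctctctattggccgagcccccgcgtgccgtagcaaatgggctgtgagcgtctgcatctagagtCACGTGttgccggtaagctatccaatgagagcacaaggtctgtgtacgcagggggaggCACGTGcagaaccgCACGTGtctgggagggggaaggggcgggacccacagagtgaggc
Bhlhe41: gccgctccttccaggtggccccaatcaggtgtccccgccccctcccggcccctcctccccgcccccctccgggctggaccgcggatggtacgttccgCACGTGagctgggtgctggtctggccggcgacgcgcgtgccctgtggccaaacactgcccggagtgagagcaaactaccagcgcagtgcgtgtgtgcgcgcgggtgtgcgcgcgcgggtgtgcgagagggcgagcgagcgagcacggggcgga
Cry1: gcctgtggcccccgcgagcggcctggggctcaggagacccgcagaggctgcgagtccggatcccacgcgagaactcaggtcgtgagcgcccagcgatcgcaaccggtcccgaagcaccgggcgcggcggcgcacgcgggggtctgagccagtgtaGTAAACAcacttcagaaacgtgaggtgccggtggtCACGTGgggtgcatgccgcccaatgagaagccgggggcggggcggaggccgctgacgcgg
Per3: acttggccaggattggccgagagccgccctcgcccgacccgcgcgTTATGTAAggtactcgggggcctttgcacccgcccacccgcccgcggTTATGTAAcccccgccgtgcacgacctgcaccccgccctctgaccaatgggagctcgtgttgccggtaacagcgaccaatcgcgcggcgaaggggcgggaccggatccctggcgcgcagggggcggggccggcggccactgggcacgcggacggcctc
Nfil3: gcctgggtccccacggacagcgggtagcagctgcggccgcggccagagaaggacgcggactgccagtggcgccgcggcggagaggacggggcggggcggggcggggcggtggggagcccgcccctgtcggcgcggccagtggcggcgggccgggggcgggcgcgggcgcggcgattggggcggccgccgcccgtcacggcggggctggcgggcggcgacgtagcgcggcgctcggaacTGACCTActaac
Ciart held 3 E-boxes and fell, as did Bhlhe41 with 1, whereas Cry1 with 1 rose. The 5 genes are a choice among the clock genes. Of those not shown, Tef held an E-box in each of 2 windows and fell. Per1 held 1 in 1 of 2 windows and was not called. For Dbp and Nr1d1 no window with a motif was found. Searching both strands, the E-box was in 8.07% of the windows of all tested genes, 9.25% of those of genes higher at ZT20 and 8.98% of those lower. The D-box TTATGTAA was in 0.458%, 0.645% and 0.763% in the same order, the ROR element in 1.67%, 2.15% and 1.61%, and the forkhead motif in 2.23%, 3.87% and 2.8%. These shares are descriptions of the letters in the windows.

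Of 27 ion channel and gap junction genes, which set cardiac excitation, 0 rose, 10 fell and 17 did not pass the test (37.04% called), where 3.37% of all tested genes rose and 8.46% fell, with a median of -0.25. Kcnj5 measured 63.9, 53.02, 58.7 and 55.5 TPM in the ZT8 libraries and 26.2, 28.9, 33.7 and 35.9 TPM in the ZT20 libraries. Kcnj5, a subunit of the acetylcholine-activated potassium channel, did not overlap (log2 difference -0.88, SE 0.11, adjusted p = 4.44e-07), and in NRF hearts it was -0.0021, a difference between regimens that passed (adjusted p = 3.59e-04). The potassium channels Kcnq1 (-0.82) and Kcnh2 (-0.64), the pacemaker channel Hcn4 (-0.54) and the connexin Gja1 (-0.39) fell as well. Kcnq1 (-0.36) and Kcnh2 (-0.64) fell in NRF too. In NRF hearts 9 genes of the list were called lower and 0 higher, where 11.1% of all tested genes were called. Of the 10 DRF calls, 2 differed between the regimens. Under median-of-ratios rescaling 9 genes of the list were called lower in DRF and 1 higher. Kcnj5 and Hcn4 are more abundant in atria, and the atrial markers varied between libraries as given above; their part in these falls was not tested.

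Of 25 calcium handling and adrenergic genes 1 rose, 3 fell and 21 did not pass the test (16% called), against 11.8% of all tested genes, and under median-of-ratios rescaling the higher and lower calls were 3 and 3. The receptor Adra1a rose (3.82 to 7.61 TPM, 0.83), and Camk2d (-0.33) and the sodium-calcium exchanger Slc8a1 (-0.46) fell. Among 25 sarcomere and hypertrophy genes 0 rose, 2 fell and 23 did not pass the test (8% called). The falls were Tcap, the titin cap (2501 to 1385 TPM, -0.85), and Ldb3 (-0.23). Collagen and matrix genes were lower in 6 of 25 cases (28% called in either direction), with Col6a2 (-0.63), Col15a1 (-0.74) and Col3a1 (-0.81), while Lox, which cross-links collagen, rose (0.80). The summed fibroblast markers spanned 2988 to 3671 TPM at ZT8 and 2503 to 3456 TPM at ZT20; 2 of 10, Col3a1 and Col1a1, were called, and their part was not tested. The cold-inducible RNA-binding genes Rbm3 (30.02 to 17.7 TPM, -0.73) and Cirbp (-0.63) fell, and in NRF hearts they fell too (-0.73 and -1.40). Ldb3 lost its call in 9 alternatives, with adjusted p up to 0.469, Col15a1 in 4, Tcap and Slc8a1 in 2 each, and Camk2d and Cirbp in 1 each.

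Of 20 antioxidant genes of the NRF2 pathway 4 rose, 2 fell and 14 did not pass the test (30% called), against 11.8% of all tested genes, with both subunits of glutamate-cysteine ligase, Gclm (0.47) and Gclc (0.36), among the rises. Of 15 iron handling genes 2 rose, 4 fell and 9 did not pass the test (40% called). The exporter Slc40a1 rose (0.54) and the transferrin receptor Tfrc (31.8 to 17.3 TPM, -0.89), Steap3 (-0.44) and Slc11a2 (-0.30) fell. Among 17 NAD and sirtuin genes 2 rose, 4 fell and 11 did not pass the test (35.3% called), with Nampt, which makes NAD from nicotinamide, going from 73.1 to 114 TPM (0.63). Of 25 heat shock genes 0 rose, 2 fell and 23 did not pass the test (8% called), the falls being Hspb7 at -0.34 and Hsf1 at -0.20. Among 27 splicing factor genes 1 rose, 5 fell and 21 did not pass the test (22.2% called), and among 26 translation factor genes 1 rose, 4 fell and 21 did not pass the test (19.2% called), with the cap-binding Eif4e at -0.44. Klf4 (0.85) was the one call among 19 immediate early genes, all of which had positive differences; 5 were called higher under median-of-ratios rescaling and 3 were called by voom. No gene was called among 18 proliferation, 18 amino acid catabolism or 13 mitochondrially encoded genes by limma, against 11.8% of all genes; at an unadjusted p under 0.05 there were 1, 2 and 0, and by voom 1, 1 and 0. Of 16 PPAR and coactivator genes 1 rose, 1 fell and 14 did not pass the test (12.5% called), of 25 ribosome biogenesis genes 1 rose, 3 fell and 21 did not pass the test (16% called), and of 20 aminoacyl-tRNA synthetase genes 0 rose, 1 fell and 19 did not pass the test (5% called). Under median-of-ratios rescaling the higher and lower calls were 2 and 0 in the PPAR list, 1 and 3 in ribosome biogenesis, 1 and 0 in aminoacyl-tRNA synthetases, 2 and 3 in translation factors, 2 and 5 in splicing factors, 2 and 5 in the NAD list and 4 and 1 in the NRF2 list, and 1 gene each was called higher among proliferation and amino acid catabolism genes. Among 80 nuclear genes of the respiratory chain Cox6a1 was called (-0.34). Calls were lost in 7 alternatives for Hsf1, 6 for Slc11a2, 2 for Hspb7 and 1 for Cox6a1.

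**Figure D4:**
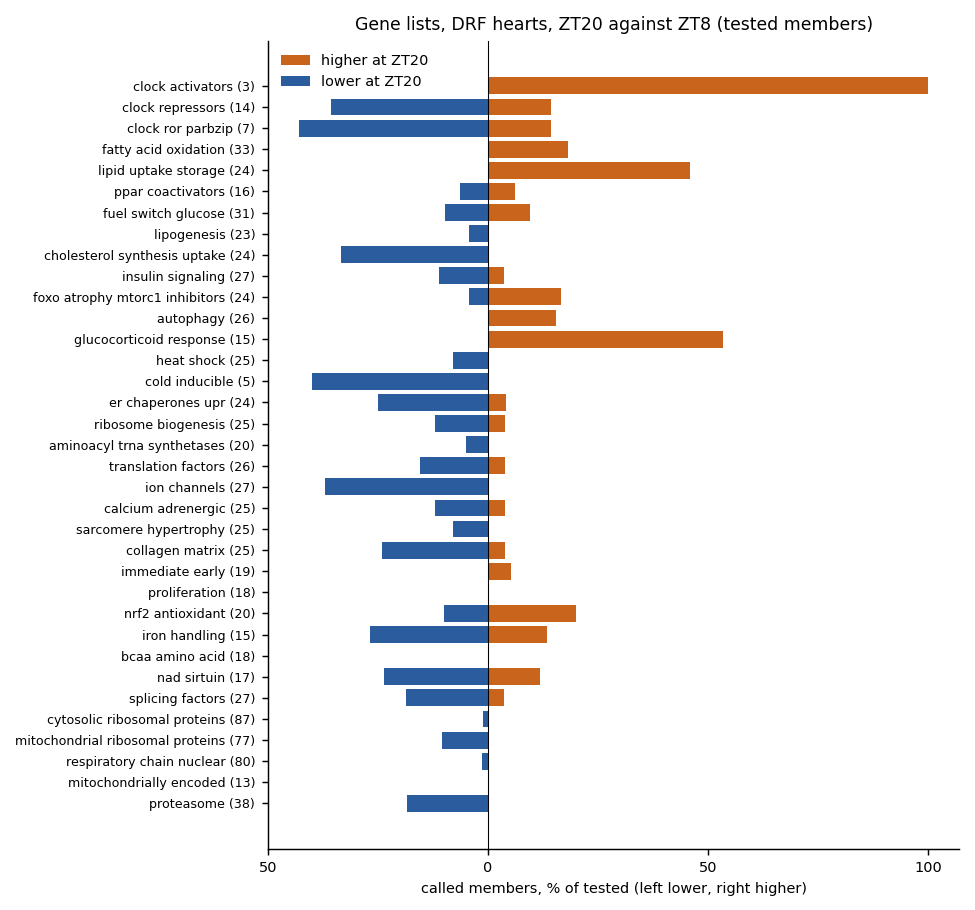
Share of tested members called at an adjusted p under 0.05 for each gene list, in percent, orange bars to the right for higher at ZT20 and blue bars to the left for lower, with the number of tested members in parentheses. The lipid uptake and storage list extends to the right only, and the ion channel and cholesterol lists to the left only.

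Set beside the NRF hearts, 1541 genes differed there between the same hours (11.1% of tested genes). The 2 comparisons share no library. They had 376 called genes in common, 22.9% of the DRF calls and 24.4% of the NRF calls, of which 315 had the same direction and 61 opposite directions. The difference between the regimens itself was called for 709 genes (5.11%), and for 355 of the 1642 DRF calls. At ZT20 some library measures did not overlap (DRF, then NRF). The mitochondrial share was 22.27% to 24.73% and 19.34% to 20.35%. Summed fibroblast markers were 2503 to 3456 and 3656 to 3837 TPM, and macrophage markers 933 to 1059 and 1162 to 1391 TPM. The share of the top genes was apart too, and the other measures overlapped. At ZT8 only summed mural markers were apart (763 to 835 and 860 to 930 TPM). The part of these measures in the calls was not tested. The count of 709 became 1331 with median-of-ratios rescaling, 1270 by voom and 437 with the libraries of both comparisons fitted alone, and the NRF count 488 with its own libraries alone. The difference between regimens was called for 38.03% of the genes that rose in DRF hearts and 15.1% of those that fell. Both shares were taken without rescaling, and the split of rises and falls beneath them rests on the scaling. Without NRF ZT8 replicate 1, the NRF count became 2413, the count of differences between regimens 1127, and the common calls 408 of the same and 98 of opposite direction. Without NRF ZT8 replicate 4 the NRF count became 754 and the count of differences between regimens 519, and without NRF ZT20 replicate 3 the NRF count became 1001.

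Beside Pdk4, which had the largest difference between regimens of the named genes with opposite differences (6.32, adjusted p = 6.78e-09), opposite differences were found for Twf2, an actin-binding twinfilin, at 0.69 in DRF and -0.64 in NRF (adjusted p of the difference 4.87e-09), and Pfn2, a profilin, at -0.42 and 0.30 (8.42e-09). The mitochondrial carriers Slc25a22 (1.15 and -0.71) and Slc25a34 (0.83 and -0.64) and the oxysterol-binding Osbp2 (0.29 and -0.83) shared the pattern of Pdk4. Shared directions were led by Nr1d1, Dbp, Lonrf3 (1.33 and 1.13), Fkbp5, Ciart (-1.10 and -1.19) and the predicted gene Gm25047 (1.87 and 2.59), a small nuclear RNA gene with a mean of 3.75 reads per DRF ZT8 library and 0 TPM in 3 of 4 NRF ZT8 libraries, whose DRF call was lost with a pseudocount of 0.1 and on the deposited values as they stand (adjusted p up to 0.456). The DRF call of Osbp2 was lost in 8 alternatives.

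**Figure D5:**
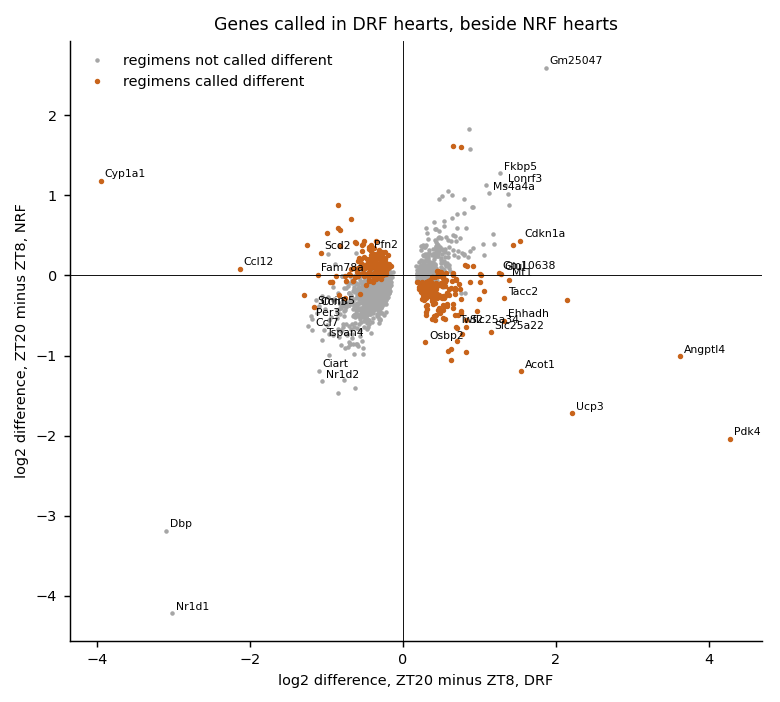
Log2 difference (ZT20 minus ZT8) in DRF hearts on the x axis and in NRF hearts on the y axis for the 1642 genes called in DRF, orange where the regimens were called different and grey otherwise. Dbp and Nr1d1 lie at the lower left with falls in both regimens, and Pdk4, Angptl4 and Ucp3 at the lower right.

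Other genes among the largest changes were Tacc2 (35.7 to 91.4 TPM, 1.32), the predicted gene Gm10638 (3.19 to 8.87 TPM) and the membrane protein gene Ms4a4a (1.13), which rose, and Smim5 (31.8 to 13.7 TPM, -1.17), Fam78a (-1.11), the matricellular Ccn5 (-1.13) and the tetraspanin Tspan4 (-1.05), which fell. Ms4a4a rose and Tspan4 fell in NRF as well (1.03 and -0.80), and Fam78a was 0.0048 there (adjusted p of the difference 0.00118).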

How the data were processed

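Heart RNA of 56 libraries (14 groups of 4) was sequenced from poly-A selected libraries. Per the labels, the authors aligned reads to mm10 with HISAT2 2.0.5 and counted them with featureCounts 1.5.0-p3; the annotation and strand setting are not given in the sources used here. The other deposited unit is no linear TPM: the deposited score of a gene is log2(CPM + 1) divided by gene length and rescaled per library. Whole reads were recovered from the deposited score with 2 constants per library and an exon length per gene. The GENCODE M21 length put all values under 30000 reads within 0.1 of a whole read for 21938 of 22864 genes (95.95%). For 837 genes (802 on chromosomes 17 to 19) a length was searched that gave whole reads, and 89 genes were too abundant for this check. That 100.0% of values under 30000 reads were then whole follows partly from this search. Linear TPM was then computed, and genes averaging 1 TPM or more over all libraries were fitted with limma 3.58.1 (R 4.3.3; 14 group means, trended variance) on log2(TPM + 1). The design had assumed linear TPM. Calls used an adjusted p under 0.05. Library measures were compared by exact permutation (scipy 1.17.1). The read recovery and the limma fit were tested on simulated data.

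Named genes were the 12 largest rises and falls (protein coding, called, libraries not overlapping, mean of at least 5 TPM), up to 3 called members per list by adjusted p, all clock genes, and 6 genes each of opposite and of shared direction in NRF; other list members named were chosen after their values were seen. The comparison and the gene lists were chosen with earlier results of these data known. Alternatives covered the pseudocount, the low-value filter, scaling, voom, the libraries fitted, a replicate block, each library left out, the deposited values themselves and a stricter threshold. Promoter windows came from RefSeq (GRCm38.p6) and matched 88 of 113 named genes. A few genes that met the rule are not reported here.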

Additional observations from a re-analysis of the deposited data

Results flagged for a closer look

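In 482 groups of 4 values, of named genes and library measures, 34 (7.05%) held a library whose gap to the next was above Dixon's 95% critical share of the range, where chance gives about 1 in 20. In TPM, with the range of the other libraries, these were Pdk4 in DRF ZT8 (92.5 against 54.5 to 59.6), Angptl4 in NRF ZT20 (4.49 against 3.29 to 3.41), Cyp1a1 in DRF ZT8 (123 against 34.98 to 48.5), Cyp1a1 in NRF ZT20 (13.9 against 3.35 to 4.88), Dbp in DRF ZT8 (66.8 against 76.2 to 77.7), Per3 in DRF ZT20 (2.96 against 3.88 to 4.01), Nr1d2 in DRF ZT20 (24.01 against 29.2 to 30.3), Tspan4 in DRF ZT20 (22.6 against 24.9 to 25.3), Per1 in DRF ZT20 (18.4 against 12.5 to 12.7), Per2 in DRF ZT20 (4.91 against 6.67 to 6.9), Cry1 in NRF ZT8 (13.1 against 5.4 to 6.64). Further such libraries were found for Cry2 in DRF ZT8 (15.9 against 12.9 to 13.3), Nfil3 in NRF ZT8 (22.2 against 4.93 to 6.68), Csnk1d in NRF ZT8 (44.9 against 36.05 to 36.9), Csnk1d in NRF ZT20 (40.2 against 36.02 to 36.7), Timp4 in NRF ZT20 (27.9 against 13.7 to 15.5), Mlycd in DRF ZT8 (65.2 against 67.1 to 67.4), Mlycd in DRF ZT20 (90.5 against 109 to 112), Plin4 in DRF ZT8 (69.0 against 45.9 to 48.1), Fbxo31 in DRF ZT8 (46.4 against 36.8 to 37.98), Hspb7 in DRF ZT8 (1697 against 1526 to 1550), Hspb7 in NRF ZT20 (1434 against 1610 to 1631). The rest were Rrp9 in NRF ZT8 (18.8 against 14.9 to 15.4), Polr1a in NRF ZT20 (6.83 against 7.72 to 7.75), Kcnh2 in NRF ZT8 (68.5 against 54.2 to 56.3), Tcap in NRF ZT8 (2024 against 5207 to 5729), Slc40a1 in NRF ZT8 (11.3 against 7.48 to 7.86), Mrps27 in DRF ZT20 (29.9 against 36.6 to 37.3), Psmb10 in DRF ZT20 (41.2 against 50.05 to 51.9), Twf2 in NRF ZT20 (111 against 103 to 103), Gm25047 in DRF ZT8 (4.37 against 1.05 to 1.42), Gm25047 in NRF ZT8 (2.85 against 0 to 0). Of the library measures, the share of the top genes in DRF ZT20 had 1 library at 26.7% against 24.9% to 25.1%, and summed erythroid markers in DRF ZT8 had 1 at 26480 TPM against 4860 to 7502 TPM. DRF ZT8 replicate 3 was the library concerned most often, for Cyp1a1, Cry2, Mlycd, Plin4, Fbxo31 and Hspb7, followed by NRF ZT20 replicate 3 for Angptl4, Cyp1a1, Timp4, Polr1a and Twf2. NRF ZT8 replicate 1 was the library concerned for Cry1, Nfil3, Tcap and Gm25047, replicate 4 of that group for Csnk1d, Rrp9, Kcnh2 and Slc40a1, and DRF ZT20 replicate 2 for Per3, Nr1d2, Mrps27 and Psmb10.

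The difference ZT20 minus ZT8 differed between DRF and NRF hearts (limma, adjusted p under 0.05) for 44 named genes. As DRF minus NRF on the log2 scale, the values were Pdk4 (6.32), Angptl4 (4.63), Ucp3 (3.93), Acot1 (2.74), Cdkn1a (1.10), Mt1 (1.43), Tacc2 (1.61), Ehhadh (1.89), Glul (1.26), Gm10638 (1.22), Slc25a22 (1.85), Cyp1a1 (-5.12), Ccl12 (-2.21), Smim5 (-0.77), Fam78a (-1.12), Scd2 (-1.36). Among list members they were Npas2 (0.82), Cry1 (-0.84), Mlycd (1.06), Plin4 (0.72), Idi1 (-0.37), Klf11 (0.92), Fbxo31 (0.51), Sqstm1 (0.68), Atg13 (0.54), Gabarapl1 (0.78), Hsf1 (-0.28), Herpud1 (0.80), Pdia3 (-0.64), Manf (-1.39), Eif4e (-0.45), and finally Kcnj5 (-0.87), Adra1a (1.38), Gclm (0.71), Gsta3 (-0.96), Gclc (0.62), Slc40a1 (0.82), Steap3 (-0.45), Mrpl18 (-0.44), Mrpl47 (-0.43), Twf2 (1.32), Pfn2 (-0.72), Osbp2 (1.13), Slc25a34 (1.47). Without NRF ZT8 replicate 1, 40 of them stayed called, and Npas2, Plin4, Idi1 and Steap3 did not, whereas Nr1d1, Nfil3, Cirbp, Tcap and Slc11a2 became called.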

How the results depend on the processing

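The count of DRF genes that differed between ZT20 and ZT8 (1642) stayed within 1.5 times under another pseudocount, either filter, median-of-ratios rescaling, voom, the replicate block and the deposited values (1353 to 2198), and became 737 at an adjusted p under 0.01 and 1033 with its own libraries fitted alone; leaving out a library gave 1006 to 1701. Its split was 786 higher and 1268 lower by voom, and 1226 and 684 on the deposited values. The count of differences between regimens (709) became 262 at an adjusted p under 0.01, 1331 with median-of-ratios rescaling, 1270 by voom and 437 with the libraries of both comparisons alone, and 488 to 1127 with a library left out, the highest without NRF ZT8 replicate 1. The NRF count (1541) became 708 at an adjusted p under 0.01, 488 with its own libraries alone, and 754 (without ZT8 replicate 4) to 2413 (without ZT8 replicate 1) with a library left out, and 1001 without ZT20 replicate 3. The cause of these moves was not tested. Of 103 called named genes, 94 were tested in all 16 alternatives and 65 of these stayed called in each, while 9 were below the filter of at least 5 TPM and 5 of those stayed called wherever tested; none changed sign, and 15 lost the call in more than 3, among them Ciart, Ldb3, Hars, Osbp2, Tfam, Hsf1 and Fbxo31. Of the uncalled named genes, 5 gained the call in some alternative (Nfil3, Csnk1e, Rora, Bhlhe40 and Timp4). Signs turned for 2 uncalled genes with a library left out: Cry2 (-0.0554 to 0.0742) and Csnk1d (-0.0415 to 0.0678). With the replicate number as a block, the counts were 1658 (DRF), 1527 (NRF) and 708 (difference). Same-numbered libraries deviated together with correlations of -0.0329 to 0.261 in DRF and -0.0237 to 0.103 in NRF, so the numbers were not taken to pair them. Depth limits genes of low level: the mean reads per DRF ZT8 library were 3.75 for Gm25047 and 31.0 for Lonrf3, against 4147 for Dbp.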
